A study of Homo sapiens with 4 samples.

Results

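The comparison set cells that had received 4 Gy of gamma radiation and then 3-deazaneplanocin A (DZNep) against cells that had received the same dose and then only the solvent, DMSO. It asks what the drug adds in irradiated cells. Kept were gene symbols that reached 10 CPM (counts relative to library size) in at least the higher of these 2 libraries, 8210 of the 26364 symbols in the tables. The cells were NCI-H460, an established human line of non-small cell lung cancer, and RNA was taken after 48 h with 2 uM DZNep or with DMSO. The series also holds the same pair without radiation (0 Gy), so that it has 4 groups, each of 1 library. No group has a replicate, so no difference below was tested. The counts of genes given here describe these libraries and not the conditions. Levels are CPM also scaled for composition, and a ratio is the log2 of DZNep 4 Gy over DMSO 4 Gy with a prior count of 2. Intervals are 95% intervals of the ratio and cover counting error only.

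DZNep blocks S-adenosylhomocysteine hydrolase, the product of AHCY, so that the by-product of methyl transfer builds up and slows many methyltransferases. The best known of these is EZH2, the subunit of Polycomb repressive complex PRC2 that methylates histone H3 at lysine 27 and keeps genes silent. Ionising radiation breaks DNA and activates p53, which switches on genes of cell cycle arrest, repair and cell death.

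Among the symbols of the tables, 5248 had no count in either 4 Gy library and 12906 had counts but stayed under 10 CPM in both. The 2 irradiated libraries held 116234177 counts (DZNep) and 112461380 counts (DMSO), and the kept genes took 97.96% and 97.82% of them. A level of 0 leaves room for 3 counts, at most 0.0267 CPM. The epithelial keratins KRT8 and KRT18 stood at 2048 and 2070 CPM with DZNep and 862 and 654 CPM with DMSO, whereas EPCAM and CDH1 were under 1 CPM in both. Summed levels of the 5 fibroblast markers were 18.9 and 26.9 CPM, of 4 endothelial markers 0.651 and 0.258 CPM, and of 5 lung lineage markers 0.835 and 0.365 CPM. PTPRC and HBB, which mark blood cells, had no count, and CD68, at 67.4 and 88.2 CPM, gave most of the blood cell sum of 74.9 and 93.3 CPM. The part of these markers in the results was not tested. Without radiation CDKN1A, a p53-driven brake on the cell cycle, stood at 251 CPM with DZNep and 201 CPM with DMSO. After radiation it reached 1307 and 1296 CPM, so both libraries labelled 4 Gy carried this radiation mark.

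DZNep was accompanied by at least 2-fold higher levels of 266 genes (3.24% of 8210) and at least 2-fold lower levels of 322 genes (3.92%), together 7.16%. At least 4-fold apart were 33 higher and 45 lower genes, and at least 8-fold apart 11 and 14. The median ratio was 0.02, with quartiles of -0.30 and 0.32 and an SD across genes of 0.597. Genes with higher ratios gained more CPM than the lower ones lost, 29808 against 14183 CPM in sum over the genes past 2-fold. Among genes at 10 to 30 CPM, 3.45% were 2-fold higher and 5.08% lower. Among the 155 genes at 1000 CPM or more, 5.16% were higher and 2.58% lower. Counting error alone separated most genes, since 7361 intervals excluded 0, and 114 of the 588 genes past 2-fold had an interval that reached inside the bound. Just inside the bound lay TYRO3 (1.0016), ZNF226 (1.0017) and TAF9 (1.0039) above, and ASH1L (-1.0015), LINC01278 (-1.0005) and TCAIM (-1.0001) below. Just outside lay SLPI (0.9998), IFI30 (0.9982) and C1orf123 (0.9971) above, and RALGAPA1P (-0.9981), LINC00602 (-0.9979) and TTC39C (-0.9974) below.

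**Figure D1:**
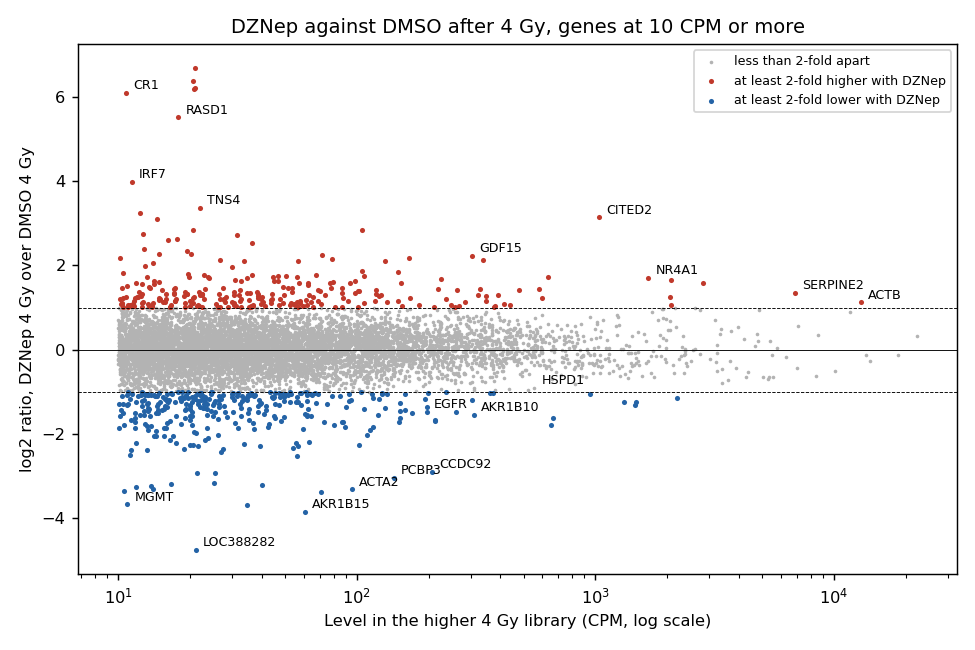
Each point is a gene at 10 CPM or more in the higher irradiated library, with its level there (x axis, CPM, log scale) against its log2 ratio of DZNep 4 Gy over DMSO 4 Gy (y axis), and dashed lines mark 2-fold. The 266 red and 322 blue points spread over most levels, and the highest of them is ACTB at 12933 CPM.

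Several of the highest ratios belonged to regulators and surface proteins that the DMSO cells hardly expressed. RASD1, a Ras-family GTPase, stood at 17.9 CPM in DZNep 4 Gy, 0.374 CPM in DMSO 4 Gy, 23.5 CPM in DZNep 0 Gy and 0.867 CPM in DMSO 0 Gy. Both DZNep libraries lay far above both DMSO libraries, and the ratio at 4 Gy was 5.52 (interval 5.14 to 6.06). IRF7, a transcription factor of the interferon response, stood at 11.4 CPM against 0.703 CPM after radiation and at 9.02 against 1.58 CPM without, a ratio of 3.99 (interval 3.69 to 4.36). CR1, a complement receptor, had 1231 counts against 16 (10.8 and 0.142 CPM), a ratio of 6.09. It stood at 7.61 and 2.47 CPM without radiation, so the low level in DMSO 4 Gy sets the size of its ratio, and its counts are uncertain because a close paralog exists. ELF3, an epithelial transcription factor, stood at 14.6 against 1.67 CPM and had 4.65 and 1.16 CPM at 0 Gy, so DZNep 4 Gy was the highest library. Further ratios in the same range were those of the kinesin gene KIF21B (3.25), the water channel gene AQP3 (2.53), CYP26B1, whose product breaks down retinoic acid (2.61), FBXO32, a ubiquitin ligase subunit (2.64), and the glucocorticoid-responsive gene TSC22D3 (2.16).

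CITED2, a transcriptional co-regulator, had the highest ratio among genes above 1000 CPM, at 1034 CPM against 117 CPM (3.15, interval 3.12 to 3.17). Without radiation the same gene stood at 945 and 54.97 CPM. The DZNep libraries thus lay close together, and the DMSO library was higher after radiation. NDRG1, a stress-responsive gene of hypoxia, stood at 337 and 77.4 CPM (2.12) and at 342 and 58.6 CPM without radiation.

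**Figure D2:**
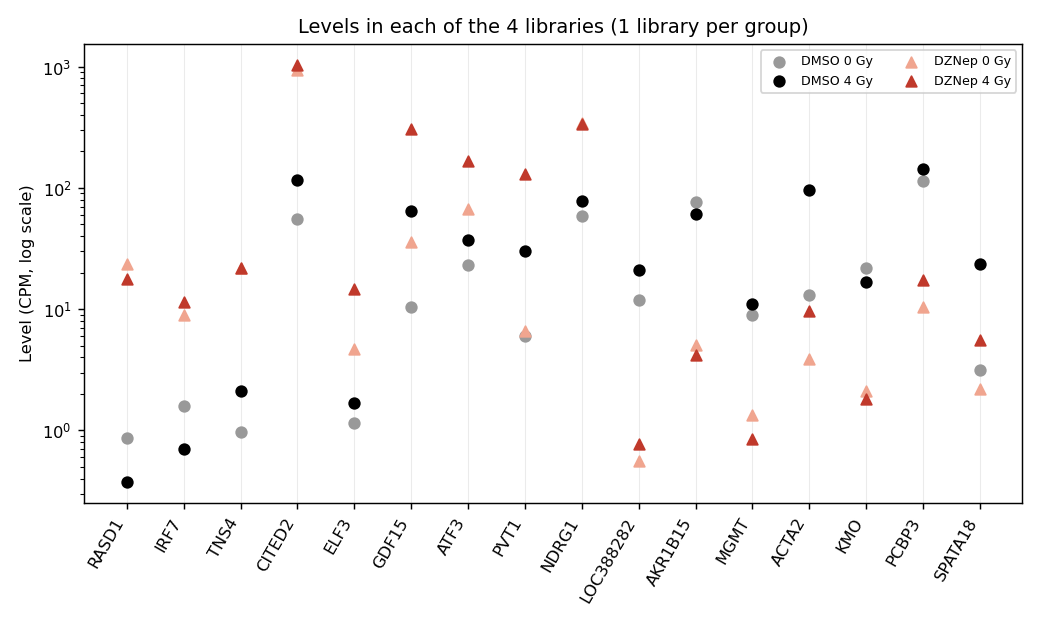
Levels of 16 genes (y axis, CPM, log scale) in each of the 4 libraries, with circles for DMSO, triangles for DZNep and darker symbols for 4 Gy. For RASD1, CITED2, MGMT and KMO both triangles lie apart from both circles, whereas PVT1 and GDF15 are highest in DZNep 4 Gy alone.

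Immediate early genes, which respond to growth factor and stress signals within minutes, were the list with the highest median. Of 26 listed genes 21 were at 10 CPM, of which 13 were at least 2-fold higher and 1 lower, against 3.24% and 3.92% of all genes. Ratios above 0 were found for 19 of the 21, against 4225 of all 8210 genes, and the median ratio was 1.28 against 0.02. At 0 Gy the list's median was higher, at 1.46. RASD1 and CITED2 count in this list, and so does ATF3, which also counts in the integrated stress response list. The nuclear receptor gene NR4A1 stood at 1666 and 509 CPM (1.71) and IER2 at 62.3 and 21.5 CPM (1.54). IER3, a survival gene that counts in the NF-kB list below, stood at 262 and 98.7 CPM (1.41). Of the 21, EGR1 was the only gene 2-fold lower and 1 of 2 with ratios below 0. It stood at 3.77 against 14.4 CPM (-1.93, interval -2.09 to -1.78), and it was also lower with DZNep at 0 Gy, at 4.16 against 8.65 CPM. The 5 members under 10 CPM did not share 1 pattern: FOS stood at 7.61 and 6.56 CPM, JUN at 4.67 and 4.25 CPM, FOSB at 1.91 and 1.09 CPM and EGR2 at 0.571 and 0.961 CPM. EGR3 had 112 counts against 2, a ratio of 4.88 (interval 3.90 to 8.85). These 5 were named after their values were seen.

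Feedback genes of the MAP kinase pathway, which are switched on by ERK and restrain it, had ratios above 0 in 12 of 12 members at 10 CPM (median 0.74), against 4225 of all 8210 genes (median 0.02). At 0 Gy the median of these 12 members was 0.95. After 4 Gy 3 of the 12 were 2-fold higher and 0 lower, against 3.24% and 3.92% of all genes. The phosphatase gene DUSP5 stood at 55.9 and 16.9 CPM (1.73), ERRFI1, an inhibitor of the EGF receptor, at 77.4 and 25.8 CPM (1.58), and PHLDA1 at 183 and 87.8 CPM (1.06). The receptor gene itself, EGFR, was lower, at 70.9 against 197 CPM (-1.47, interval -1.51 to -1.44), and stood at 44.7 and 87.6 CPM without radiation. EGFR was thus lower with the drug in both pairs and highest in DMSO 4 Gy. Among the ligands of that receptor, AREG stood at 34.6 and 10.7 CPM (1.70) and EPGN at 63.04 and 151.4 CPM (-1.26).

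The integrated stress response couples amino acid shortage and other stress to the transcription factor ATF4, whose targets make and import amino acids. Of 29 members at 10 CPM 8 were at least 2-fold higher and 0 lower, against 3.24% and 3.92% of all genes. Ratios above 0 were found for 26 (median 0.72), against 4225 of all 8210 genes (median 0.02). At 0 Gy the list's median was 0.63. NUPR1, a stress-induced chromatin protein, stood at 20.2 and 4.20 CPM (2.26). ATF3, a transcription factor, stood at 166 and 37.0 CPM (2.17, interval 2.12 to 2.22), and at 66.8 and 23.1 CPM without radiation. DZNep 4 Gy was therefore the highest library for ATF3, and DMSO 0 Gy the lowest. The secreted hormone gene STC2 stood at 106 and 28.8 CPM (1.87), CHAC1, which degrades glutathione, at 50.5 and 15.1 CPM (1.74), VLDLR, a lipoprotein receptor gene, at 44.9 and 14.5 CPM (1.62) and PHGDH, the entry enzyme of serine synthesis, at 43.7 and 19.2 CPM (1.18). CTH, which makes cysteine, had a ratio of 1.03 at 4 Gy and 2.15 at 0 Gy. ASNS, asparagine synthetase, stood below the 2-fold bound, at 411 and 256 CPM (0.69). Some well-known members did not follow: DDIT3 stood at 20.1 and 23.8 CPM (-0.24) and SLC7A11 at 59.3 and 62.4 CPM (-0.07), both named after their values were seen. Chaperones of the endoplasmic reticulum, the other arm of protein stress, had a median of 0.04 over 17 members with 0 past 2-fold in either direction.

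The composite element of C/EBP and ATF factors, searched as TGATGNAA on both strands, was found in the 250 bases before the start of ATF3, CHAC1 and ASNS, 3 of the 24 promoters of that list that could be matched (12.5%), against 1.09% of 6761 matched genes. Among the 199 matched 2-fold higher genes the share was 2.51%. The sequences around the 3 matches in the list are shown because no other promoter of the list held a match. They come from the RefSeq table on GRCh38.p14, in the direction of the gene, with the match in capitals. ATF3 lies on the plus strand at chr1:212565167-212565286, CHAC1 on the plus strand at chr15:40953221-40953330 with its match on the other strand, and ASNS on the minus strand at chr7:97872409-97872528.
ATF3: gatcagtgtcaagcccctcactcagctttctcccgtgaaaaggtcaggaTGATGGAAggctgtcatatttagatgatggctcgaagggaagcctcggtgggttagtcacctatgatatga
CHAC1: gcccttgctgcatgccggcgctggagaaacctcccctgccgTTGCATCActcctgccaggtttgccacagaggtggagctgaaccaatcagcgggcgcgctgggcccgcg
ASNS: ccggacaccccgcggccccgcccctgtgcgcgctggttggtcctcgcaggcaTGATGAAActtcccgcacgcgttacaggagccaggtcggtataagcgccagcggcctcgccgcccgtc
The first base of the match lay 191 bases before the start listed for ATF3, 209 for CHAC1 and 68 for ASNS. A match is a description of letters and not evidence of binding.

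NF-kB is held in the cytoplasm by inhibitors and, once released, induces inflammatory genes together with its own inhibitors. Of 16 subunits and feedback genes at 10 CPM 2 were 2-fold higher, ICAM1 and IER3, and 0 lower, against 3.24% and 3.92% of all genes. Of the 16, 14 had ratios above 0 (median 0.50), against 4225 of all 8210 genes (median 0.02). At 0 Gy the list's median was 0.14. The adhesion molecule gene ICAM1 stood at 36.4 CPM in DZNep 4 Gy, 10.6 CPM in DMSO 4 Gy, 19.2 CPM in DZNep 0 Gy and 5.53 CPM in DMSO 0 Gy (ratio 1.78, interval 1.69 to 1.88). Each DZNep library lay above the DMSO library of the same dose, and DZNep 4 Gy was the highest. TNFAIP3, which ends NF-kB signalling, stood at 951 and 552 CPM (0.78), and the inhibitor gene NFKBIA at 78.0 and 47.5 CPM (0.72). In 13 of the 16 genes DZNep 4 Gy was the highest of the 4 libraries, against 2227 of all 8210 genes. Among 12 secreted ligands 2 were 2-fold higher, the chemokine gene CCL20 at 12.7 and 1.87 CPM (2.75, interval 2.56 to 2.98) and IL1A at 13.6 and 4.93 CPM (1.46), and 1 was lower, LIF at 25.7 and 56.05 CPM (-1.12). CXCL8 stood at 58.5 and 33.2 CPM (0.82). The receptor gene IL1R1 was lower, at 8.50 against 18.5 CPM (-1.12).

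An NF-kB site searched as GGAANTTCC was found in 35.7% of the 14 matched promoters of the subunits and feedback genes, against 0.887% of all matched genes, and the longer form of the site in 42.9% against 1.92%. Among the 199 matched 2-fold higher genes the shares were 0.503% and 3.02%. The list was drawn up around NF-kB, so its shares do not describe the drug. Both forms were searched on both strands, and 1 stretch can match both. Windows from 3 genes with higher levels are shown, with the match in capitals: ICAM1 at chr19:10270885-10271004, CXCL8 at chr4:73740429-73740548 and, for the longer form on the other strand, CCL20 at chr2:227813712-227813831, all on the plus strand of GRCh38.p14 in the RefSeq table.
ICAM1: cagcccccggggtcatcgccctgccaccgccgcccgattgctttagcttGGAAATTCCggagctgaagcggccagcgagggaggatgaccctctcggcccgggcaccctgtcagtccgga
CXCL8: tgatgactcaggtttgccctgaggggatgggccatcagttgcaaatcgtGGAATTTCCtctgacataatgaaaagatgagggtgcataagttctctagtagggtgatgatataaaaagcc
CCL20: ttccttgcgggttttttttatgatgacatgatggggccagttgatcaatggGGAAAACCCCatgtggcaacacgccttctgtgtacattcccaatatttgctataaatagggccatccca
The matches begin 186, 91 and 79 bases before the listed starts. CXCL8 and CCL20 belong to the secreted ligands and not to the list of subunits and feedback genes. Matches were also found in genes with low ratios, such as REL (-0.20) and NFKB1 (0.09), both named after their values were seen.

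Most interferon response genes stood nearer to level than IRF7. Of 16 members at 10 CPM, IRF7 and IRF1 (14.9 and 6.31 CPM, 1.24) were 2-fold higher and 0 lower. These shares were 3.24% and 3.92% over all genes. The list's median was 0.16, and STAT2, a signal transducer of the pathway, stood at 10.8 and 18.5 CPM (-0.78). Antigen presentation genes had a median of 0.22 over 13 members with 0 past 2-fold in either direction (0.07 with the trend of the ratio with GC content removed), and the checkpoint ligand gene CD274 stood at 33.0 and 20.5 CPM (0.68).

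Several genes of the cytoskeleton, with the keratins KRT8 and KRT18, were among the 15 largest gains in CPM. ACTB, cytoplasmic beta-actin, had the largest gain and stood at 12933 CPM against 5923 CPM (1.13, interval 1.12 to 1.13), and at 14371 and 10313 CPM without radiation. DMSO 4 Gy was the lowest of the 4 libraries for ACTB. FN1, the matrix protein fibronectin, stood at 22410 and 17895 CPM, a large gain in CPM at a ratio of only 0.32. SERPINE2, a secreted protease inhibitor, stood at 6850 and 2685 CPM (1.35) and KRT18 at 2070 and 654 CPM (1.66). The membrane protein gene MYADM stood at 2822 and 940 CPM (1.59). Outside the 15 largest gains, KRT81 stood at 23.9 and 7.25 CPM (1.72). The keratins KRT19 (178 and 247 CPM, -0.47) and KRT80 (59.6 and 97.95 CPM, -0.72) were lower. Of 23 actin, contractile and focal adhesion genes 4 were 2-fold higher and 1 lower, against 3.24% and 3.92% of all genes. Of the 23, 21 had ratios above 0 (median 0.55), against 4225 of all 8210 genes (median 0.02). The list's median was 0.48 at 0 Gy, and at 4 Gy it was 0.39 with the GC trend removed. TNS4, a focal adhesion protein, stood at 22.03 and 2.11 CPM (3.37), the muscle scaffold gene NRAP at 105 and 14.8 CPM (2.83) and FHL2 at 148 and 41.6 CPM (1.83).

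ACTA2, smooth muscle actin, went the other way, at 9.57 CPM in DZNep 4 Gy against 95.4 CPM in DMSO 4 Gy, 3.85 CPM in DZNep 0 Gy and 13.1 CPM in DMSO 0 Gy (ratio -3.31, interval -3.41 to -3.23). DMSO 4 Gy stood far above the other 3 libraries. ACTA2-AS1, on the opposite strand, stood at 1.02 and 10.6 CPM (-3.35), and FAS also overlaps ACTA2 on the opposite strand, so reads of these genes cannot be assigned with certainty because strand use in counting is not given. Of 16 targets of YAP and TEAD, regulators of growth under tension, 3 were 2-fold higher, TNS4, ANKRD1 (20.5 and 2.87 CPM, 2.83) and AREG, and 1 lower, NT5E (14.2 and 32.9 CPM, -1.21). The shares over all genes were 3.24% and 3.92%. The list's median was 0.52 at 4 Gy and 0.57 at 0 Gy, and TNS4 also counts in the adhesion list.

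Matrix genes and their proteases were mixed in direction. Of 23 members 4 were 2-fold higher, among them the collagenase gene MMP1 (71.2 and 14.9 CPM, 2.25), the integrin gene ITGA3 (119.8 and 48.3 CPM, 1.31) and the urokinase gene PLAU (237 and 103 CPM, 1.21). The collagen gene COL5A1 was lower (11.04 and 36.7 CPM, -1.73), the only member 2-fold lower. The shares over all genes were 3.24% higher and 3.92% lower, and the list's median was 0.21 at 4 Gy and 0.41 at 0 Gy. In the TGF-beta and BMP list LTBP1, which tethers latent TGF-beta, stood at 67.6 and 19.9 CPM (1.76) and the BMP target ID1 at 226 and 70.2 CPM (1.69), 2 of 13 members past 2-fold with 0 lower.

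**Figure D3:**
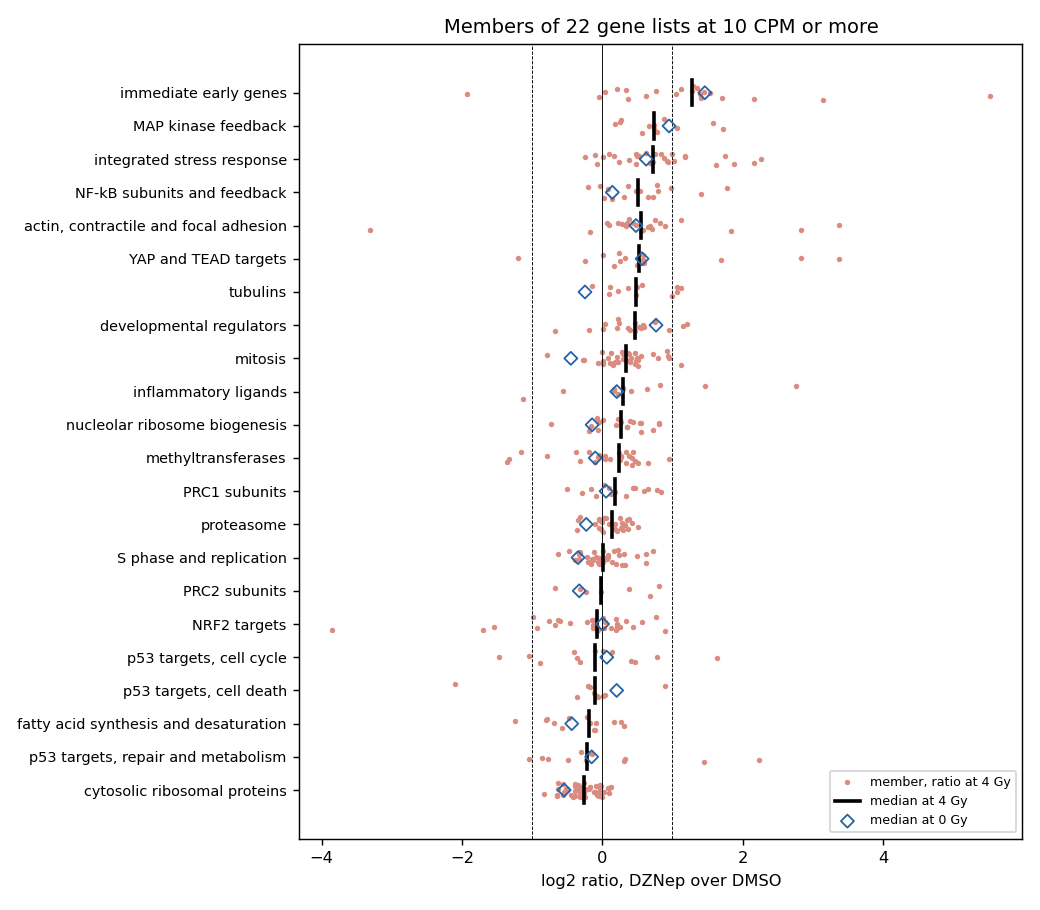
Log2 ratios of DZNep over DMSO (x axis) for the members at 10 CPM of 22 of the 49 gene lists (y axis), with a point for each member at 4 Gy, a bar for the median at 4 Gy and a diamond for the median at 0 Gy. Immediate early genes have the highest median (1.28), cytosolic ribosomal proteins the lowest (-0.27), and the bars of mitosis and tubulin genes lie right of 0 while their diamonds lie left of it.

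Genes of mitosis stood higher with DZNep after radiation but not without it. Of 35 members at 10 CPM 1 was 2-fold higher and 0 lower, which is near the background of 3.24%, yet 30 had ratios above 0 and the median was 0.34, against -0.45 for the same genes at 0 Gy. The ratio was higher at 4 Gy than at 0 Gy in 34 of the 35 genes, against 51.7% of all genes. CENPF, a kinetochore protein, stood at 48.8 CPM in DZNep 4 Gy, 22.5 CPM in DMSO 4 Gy, 38.4 CPM in DZNep 0 Gy and 47.1 CPM in DMSO 0 Gy, a ratio of 1.12 (interval 1.05 to 1.19) after radiation and -0.29 without. MKI67, the proliferation marker Ki-67, stood at 243, 127, 264 and 252 CPM in the same order (0.94 after radiation). The kinase gene PLK1 stood at 150 and 79.5 CPM (0.92) and at 129.9 and 127 CPM without radiation. For these 3 genes DMSO 4 Gy was the low library. DMSO 4 Gy was the lowest library in 26 of the 35 genes (74.3%), against 25.6% of all genes, and DMSO 0 Gy the highest, also in 26. The median level of the 35 genes was 71.5 CPM in DZNep 4 Gy, 60.5 CPM in DMSO 4 Gy, 72.7 CPM in DZNep 0 Gy and 85.3 CPM in DMSO 0 Gy. The DZNep libraries were thus close to each other and lay between the DMSO libraries. UBE2C, which feeds substrates to the anaphase-promoting complex, had the largest gain of the list, from 1421 to 2747 CPM (0.95). HMMR, a spindle protein gene, was lower with the drug in both pairs (23.6 and 40.7 CPM after radiation, -0.79). In bulk RNA, a smaller share of cells in mitosis and less mitotic RNA per cell cannot be told apart.

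**Figure D4:**
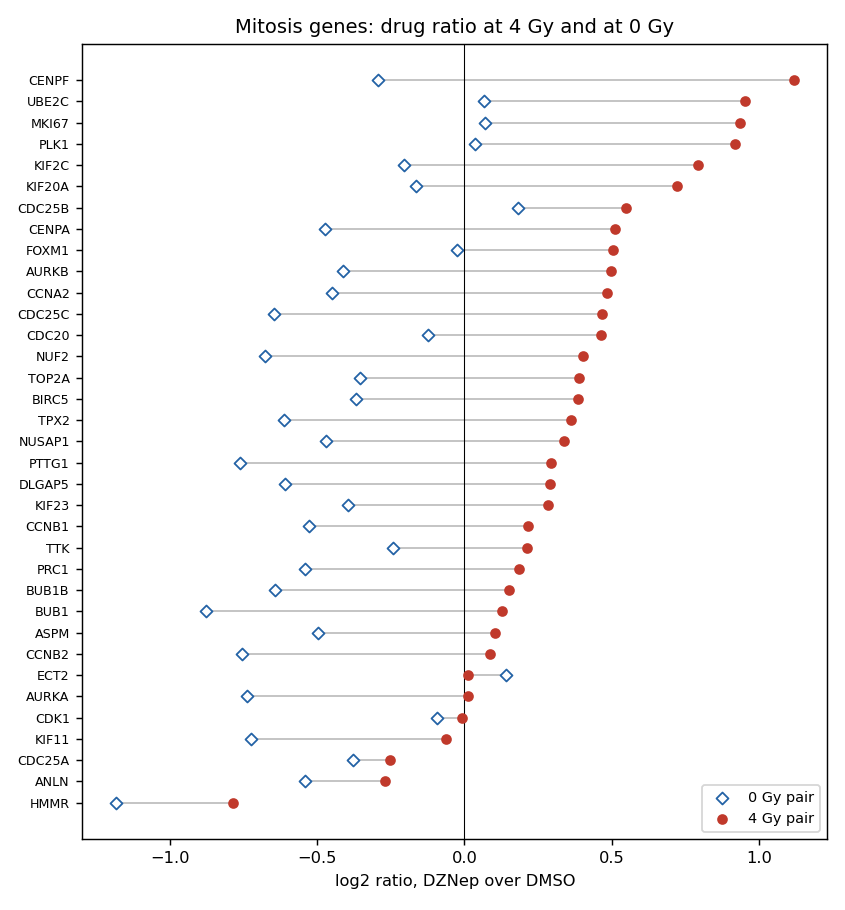
Log2 ratio of DZNep over DMSO (x axis) for the 35 mitosis genes at 10 CPM (y axis), with a filled circle for the 4 Gy pair and an open diamond for the 0 Gy pair, joined by a line. The circle lies right of the diamond in 34 genes; ECT2 is the exception.

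Tubulins shifted between doses in the same sense, with a median of 0.49 at 4 Gy (0.36 with the GC trend removed) and -0.25 at 0 Gy. Their median level was 270 CPM in DZNep 4 Gy, 194 CPM in DMSO 4 Gy, 232.5 CPM in DZNep 0 Gy and 253 CPM in DMSO 0 Gy. Of the 12 genes, DMSO 0 Gy was the highest library in 7 and DZNep 4 Gy in 5. Of 12 members 3 were 2-fold higher and 0 lower, TUBB2A at 134 and 61.6 CPM (1.12), TUBB2B at 47.3 and 22.6 CPM (1.06) and TUBB4B at 248 and 119 CPM (1.06). Of all genes 3.24% were 2-fold higher and 3.92% lower. Tubulin genes are close copies of each other, so the division of reads among them is uncertain. Replication genes showed a smaller shift in the same sense, with a median of 0.00 against -0.35 at 0 Gy. Of 35 members 0 were past 2-fold in either direction. For 31 of them the ratio was higher at 4 Gy than at 0 Gy, against 51.7% of all genes. The helicase gene MCM7 stood at 226 and 147 CPM (0.62), the thymidine kinase gene TK1 at 53.9 and 35.0 CPM (0.62) and the uracil glycosylase gene UNG at 21.8 and 33.7 CPM (-0.63). The histone variant gene H2AFZ stood at 41.2 and 19.9 CPM (1.05), against 45.03 and 47.9 CPM without radiation. Proteasome subunits had a median of 0.14 at 4 Gy and -0.23 at 0 Gy. Of 28 members 0 were past 1.5-fold, against 909 higher and 934 lower of all 8210 genes.

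The CHR element, searched as TTTGAA on both strands, was found in 16 of the 29 matched promoters of the mitosis list (55.2%), against 7.84% of all matched genes, and a CCAAT box in 79.3% against 35.3%. Among the 199 matched 2-fold higher genes the shares were 7.04% and 40.7%. CKS1B, a partner of cyclin-dependent kinases outside the mitosis list, is shown because its drug ratio changed sign between doses. It stood at 74.8 CPM in DZNep 4 Gy, 43.5 CPM in DMSO 4 Gy, 51.99 CPM in DZNep 0 Gy and 82.6 CPM in DMSO 0 Gy (0.78 and -0.67). Its window lies on the plus strand at chr1:154974581-154974680 of GRCh38.p14, and the element, in capitals, begins 30 bases before the start in the RefSeq table.
CKS1B: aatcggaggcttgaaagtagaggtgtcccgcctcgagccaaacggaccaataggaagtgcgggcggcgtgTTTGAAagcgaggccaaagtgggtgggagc

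Targets of p53, the pathway that radiation engages, differed gene by gene. CDKN1A had a ratio of 0.01 (interval 0.00 to 0.02), and MDM2, the ubiquitin ligase that restrains p53, stood at 621 and 771 CPM (-0.31). Among 13 cell cycle targets 1 was 2-fold higher, the antiproliferative gene BTG1 at 97.9 and 31.5 CPM (1.63), and 2 were lower, TP53INP1 at 9.20 and 25.5 CPM (-1.47) and the cyclin gene CCNG1 at 25.5 and 52.7 CPM (-1.05). The median was -0.10, and the 2-fold shares over all genes were 3.24% higher and 3.92% lower. Among 10 cell death targets SPATA18, a mitochondrial quality control gene, was lower, at 5.53 CPM in DZNep 4 Gy, 23.7 CPM in DMSO 4 Gy, 2.18 CPM in DZNep 0 Gy and 3.14 CPM in DMSO 0 Gy (-2.10, interval -2.23 to -1.97). SPATA18 was thus high in DMSO 4 Gy alone. The others of that list stayed within 2-fold, with the highest ratio for AEN, at 42.8 and 23.0 CPM (0.89). FAS stood at 52.7 and 59.5 CPM (-0.17) and TNFRSF10B, a death receptor gene, at 186 and 202 CPM (-0.12).

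Among 12 targets of repair and metabolism GDF15, a secreted stress hormone, was higher, at 304 CPM in DZNep 4 Gy, 64.7 CPM in DMSO 4 Gy, 36.1 CPM in DZNep 0 Gy and 10.4 CPM in DMSO 0 Gy (2.23, interval 2.20 to 2.27). DZNep 4 Gy stood above every other library by more than 2-fold. SAT1, which acetylates polyamines, stood at 327 and 119.9 CPM (1.45), and SULF2, an extracellular sulfatase gene, was lower at 23.9 and 49.4 CPM (-1.04), although at 0 Gy it was higher with the drug (9.76 and 6.502 CPM, 0.58). DMSO 4 Gy was the highest of the 4 libraries for 7 of 13, 7 of 10 and 8 of 12 genes of these lists. For DZNep 4 Gy these counts were 5, 3 and 3. Over all 8210 genes DMSO 4 Gy was the highest for 2012 and DZNep 4 Gy for 2227. Of 21 genes of the BCL2 family and caspases 1 was 2-fold higher and 1 lower, against 3.24% and 3.92% of all genes. Their median was 0.13. BCL2L1, a survival gene, stood at 62.0 and 29.8 CPM (1.06), and BCL2L13, a family member of the mitochondrial membrane, at 118 and 237 CPM (-1.01). BAD, which promotes cell death, stood at 40.4 and 25.3 CPM (0.68), while CASP8, an initiator caspase gene, stood at 77.3 and 134 CPM (-0.79).

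The target of the drug and EZH2 stood within 1.5-fold of the DMSO level. AHCY stood at 229 and 292 CPM (-0.35), and EZH2 at 48.4 and 48.9 CPM (-0.02, interval -0.07 to 0.04), whereas at 0 Gy EZH2 stood at 53.8 and 76.4 CPM (-0.50). Of 7 PRC2 genes and 15 genes of PRC1, the complex that binds the PRC2 mark, 0 were past 2-fold in either direction. At least 1.5-fold higher were 2 of the PRC2 genes, with 1 lower, and 4 of the PRC1 genes, with 0 lower, against 909 and 934 of all 8210 genes. The ratios reached 0.81 for JARID2, a PRC2 cofactor, and 0.83 for BMI1, a PRC1 subunit, and -0.68 for RBBP4. BMI1 (12.6 CPM in DZNep 4 Gy) overlaps COMMD3-BMI1 (20.1 CPM) on the same strand, so its counts are uncertain. Of 27 methyltransferases 0 were 2-fold higher and 3 lower, against 3.24% and 3.92% of all genes. Ratios above 0 were found for 17 of the 27 (median 0.24), against 4225 of all 8210 genes (median 0.02). The list's median was 0.12 with the GC trend removed and 0.04 with a filter of 30 CPM, and -0.10 at 0 Gy. PEMT, which makes phosphatidylcholine, was lower at 77.3 and 198 CPM (-1.35). So were the creatine enzyme gene GAMT at 15.3 and 38.5 CPM (-1.33) and PRMT3 at 8.77 and 19.6 CPM (-1.16). The DNA methyltransferase gene DNMT3B stood at 23.1 and 11.9 CPM (0.95) and at 17.1 and 17.6 CPM without radiation. TXNIP, a redox regulator often studied with DZNep, stood at 55.6 and 48.3 CPM (0.20). Developmental regulators are typical Polycomb targets, and 37 of the 56 listed were under 10 CPM. Of the 19 others 2 were 2-fold higher, PAX9 at 22.97 and 9.95 CPM (1.21) and TBX2 at 32.5 and 14.6 CPM (1.15), 0 were lower, and the median was 0.46, against 0.77 at 0 Gy.

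Among the 30 lowest ratios was that of MGMT, which removes alkyl groups from guanine. It had 96 counts in DZNep 4 Gy and 1227 in DMSO 4 Gy (0.844 and 10.9 CPM, -3.67, interval -4.01 to -3.39), and stood at 1.33 and 8.93 CPM without radiation. LOC388282 stood at 0.765 and 21.1 CPM (-4.76), the zinc finger gene ZSCAN31 at 2.67 and 34.6 CPM (-3.68), the phosphodiesterase gene PDE9A at 6.80 and 70.7 CPM (-3.37) and KMO, a hydroxylase of tryptophan breakdown, at 1.81 and 16.7 CPM (-3.19). In each of these 5 genes both DZNep libraries lay below both DMSO libraries. Higher up, the RNA-binding protein gene PCBP3 stood at 17.4 and 143 CPM (-3.04), CCDC92 at 27.8 and 207 CPM (-2.90) and the small heat shock protein gene HSPB6 at 21.4 and 102 CPM (-2.26). CCDC92 overlaps ZNF664 on the opposite strand. Other genes of alkylation and excision repair did not follow MGMT, and of 22 members 1 other was past 2-fold. It was ALKBH2, a direct reversal enzyme, which was higher at 35.6 and 14.1 CPM (1.33). Past 2-fold over all genes were 3.24% upward and 3.92% downward.

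Of 33 NRF2 targets, the antioxidant genes, 0 were 2-fold higher and 3 lower, against 3.24% and 3.92% of all genes. At least 1.5-fold higher were 2 and lower 9, against 909 and 934 of all 8210 genes. NQO1, a quinone reductase, had the highest ratio of the list (0.89) and stood at 11634 and 6265 CPM. The 3 lower genes were OSGIN1 (14.9 and 48.2 CPM, -1.70), the aldo-keto reductase gene AKR1B10 (106 and 309 CPM, -1.55) and its near-identical neighbour AKR1B15 (4.19 and 60.6 CPM, -3.85), whose reads cannot be fully told apart. Of 14 fatty acid synthesis genes 11 had ratios below 0, against 3985 of all 8210 genes. The desaturase gene FADS1 stood at 23.9 and 56.5 CPM (-1.24) and SCD at 149 and 259 CPM (-0.79). Cholesterol synthesis genes had a median of -0.02 at 4 Gy and -0.48 at 0 Gy. The mitochondrial folate enzyme gene MTHFD1L stood at 97.8 and 38.3 CPM (1.35), and the polyamine oxidase gene SMOX at 479.9 and 181 CPM (1.41).

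Cytosolic ribosomal proteins were slightly lower as a group. Of 55 members 0 were past 2-fold in either direction, against 3.24% higher and 3.92% lower of all genes. Ratios below 0 were found for 50, against 3985 of all 8210 genes. The list's median was -0.27 at 4 Gy and -0.54 at 0 Gy. RPL12 had the lowest ratio, at 466 and 825 CPM (-0.83), and RPL13A lost the most CPM of the list, from 5347 to 3414 CPM (-0.65). Ribosomal protein genes have many processed copies and some host small RNAs, so their counts are uncertain. NPM1, a nucleolar chaperone, was lower too, at 2171 and 3589 CPM (-0.73), while the list of ribosome biogenesis genes that holds it had a median of 0.27.

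Set beside the pair without radiation, which shares no library with it, the irradiated pair gave like ratios for most genes. At 0 Gy the share past 2-fold was 3.76% upward and 3.63% downward, together 7.39%. Across the 8210 genes the ratios of both pairs correlated at r = 0.77 (Spearman rho = 0.71), where the points are genes from the same 4 libraries and are not independent. Of the 266 higher genes 171 were also at least 2-fold higher at 0 Gy, 50 between 1.5-fold and 2-fold, and 45 within 1.5-fold. Of the 322 lower genes 178 were 2-fold lower at 0 Gy, 95 between 1.5-fold and 2-fold, and 49 within 1.5-fold, and 0 of either set were 1.5-fold or more in the other direction. The median ratio of the higher genes was 1.28 at 4 Gy and 1.32 at 0 Gy, and that of the lower genes -1.32 and -1.11. These sets were chosen on the 4 Gy ratio, so their medians there are high by selection. Conversely, 49 genes were 2-fold higher and 44 lower at 0 Gy and within 1.5-fold at 4 Gy.

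**Figure D5:**
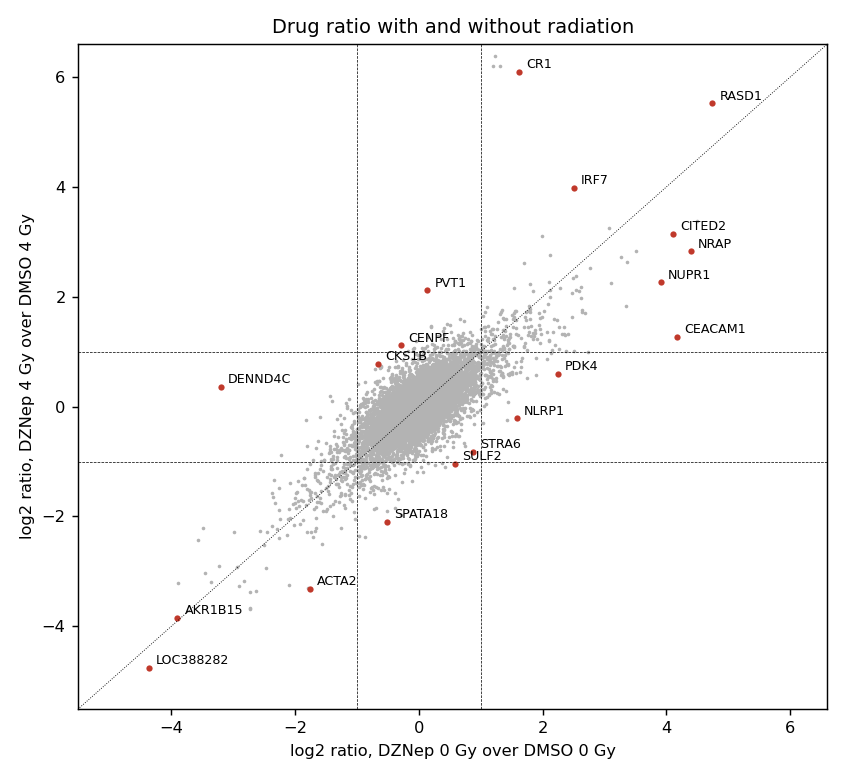
Each point is a gene at 10 CPM in the higher irradiated library, with its log2 ratio of DZNep over DMSO at 0 Gy (x axis) and at 4 Gy (y axis), dashed lines at 2-fold and a dotted line where both are equal. Most points follow the dotted line, while PVT1, CENPF and DENND4C lie above it and CEACAM1, ACTA2 and SPATA18 below it.

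The ratios of 72 genes were higher by 1 or more at 4 Gy than at 0 Gy, and those of 87 were lower by 1 or more, where the SD of this difference across genes was 0.409. PVT1, a long non-coding RNA gene, stood at 131.1 CPM in DZNep 4 Gy, 30.3 CPM in DMSO 4 Gy, 6.61 CPM in DZNep 0 Gy and 6.03 CPM in DMSO 0 Gy. Without radiation the ratio of PVT1 was near 0 (0.13), and DZNep 4 Gy was by far the highest library (ratio 2.11, interval 2.06 to 2.17). DENND4C differed in the same sense, but through a low level of 14.9 CPM in DZNep 0 Gy, against 117 to 150 CPM in the other 3 libraries. In the other direction CEACAM1, a cell adhesion gene, had a ratio of 1.27 at 4 Gy and 4.17 at 0 Gy, with 12.4, 5.16, 4.58 and 0.238 CPM in DZNep 4 Gy, DMSO 4 Gy, DZNep 0 Gy and DMSO 0 Gy. NLRP1, an inflammasome gene, stood at 8.64 and 10.005 CPM after radiation and 2.15 and 0.708 CPM without, and the kinase gene PDK4 at 52.6 and 34.8 CPM after radiation and 46.4 and 9.78 CPM without. In each of these 3 genes the DMSO level was far higher with radiation than without, and the drug ratio was smaller. Whether the drug acted differently after radiation has no error estimate in these libraries and was not tested.

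Over the 8506 genes at 10 CPM in any of the 4 libraries, DZNep 4 Gy was at least 2-fold above each other library for 17 genes and at least 2-fold below for 5. For DMSO 4 Gy these counts were 39 and 12. Besides PVT1, GDF15, ATF3 and ELF3, the 17 genes above included NEURL1B, a ubiquitin ligase gene (40.4 CPM against 18.4, 10.6 and 9.17 CPM in DMSO 4 Gy, DZNep 0 Gy and DMSO 0 Gy), and the immediate early gene IER5 (12.7 CPM against 5.80, 5.43 and 3.75 CPM). The 5 genes below were TRIQK (5.85 CPM against 17.4, 13.4 and 17.5 CPM), BFSP1, a lens filament gene (1.40 CPM against 13.9, 3.05 and 10.5 CPM), EDEM3, which acts on glycoproteins marked for degradation (5.45 CPM against 12.6, 11.5 and 13.5 CPM), AMN1 and a small nucleolar RNA gene. AMN1 stood at 2.004 CPM against 6.28, 4.798 and 10.8 CPM, and it was named after its values were seen.

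Base composition moved with the ratio after radiation. Across 7894 genes with a GENCODE transcript the ratio correlated with transcript GC content at rho = 0.23 at 4 Gy and 0.03 at 0 Gy, and with transcript length at -0.10 and 0.10. The median GC content was 53.55% for the 2-fold higher genes, 48.04% for the lower and 49.09% for all. With the GC trend removed, 252 genes were 2-fold higher and 308 lower, of which 222 and 275 were in the original sets, and the mitosis median was 0.38. The part of GC content in single ratios was not tested. In the 250 bases before the start, a TATA box searched as TATAAA on both strands was found in 13.1% of the 199 matched higher genes, 5.20% of the 250 lower and 5.15% of all, and an ETS site searched as CCGGAAG in 7.04%, 10.4% and 16.5%.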

How the data were processed

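Each library's table holds the raw counts that the authors deposited for gene symbols, not normalized. Per the labels' protocols, RNA came from Trizol extraction and libraries from the Lexogen SENSE kit for mRNA. TopHat, edgeR and hg19 were used, per the submitters' processing notes. How reads were counted (program, annotation, strand, versions) is not given in the sources used here. Even values made up 58.06% (DZNep) and 56.16% (DMSO) of counts from 1 to 59 in the 4 Gy libraries, so counting intervals may be too narrow.

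Counts were scaled here with edgeR 4.0.16 in R 4.3.3 by TMM factors from genes at 1 CPM in at least 2 libraries. Log2 ratios used a prior count of 2, and intervals are exact conditional binomial 95% intervals without it. The ratio script was checked on simulated data. Alternatives were DESeq2 1.42.0 size factors, plain library size, prior counts of 0.5 and 10, filters of 1 and 30 CPM, no filter, short RNA symbols left out, and a transcript GC trend removed in 20 bins.

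Members and all 49 gene lists were chosen with earlier results of these data known. Named genes were, by rule, the 30 highest and 30 lowest ratios, the 15 largest gains and losses in CPM, the 12 highest and lowest differences between the ratios at 4 and 0 Gy, the 10 genes farthest above and below every other library in DZNep 4 Gy, for each list at most 6 members by absolute ratio, the 3 genes on each side of each 2-fold bound, AHCY, EZH2, CDKN1A, MDM2, GDF15, TXNIP and the cell type markers. Short RNA symbols (92 of the 8210) count in the totals and are not named, and some genes that the rule names are not reported here. ASNS and CXCL8 were chosen for their promoter matches.

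No hg19 annotation was used. Promoters came from a RefSeq table on GRCh38.p14, matched by symbol for 6761 of 8210 genes (82.35%, 383 by an older symbol), with the first listed start, and transcripts from GENCODE by symbol.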

Additional observations from a re-analysis of the deposited data

Results flagged for a closer look

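In 9 of 8118 genes with no short RNA symbol, the drug ratio was at least 1.5-fold in opposite directions with and without radiation, a bound that was set after values were seen. None of these differences was tested. The ratio after radiation minus that at 0 Gy was 1.45 for CKS1B, 1.39 for TUBA3E, 1.36 for CYP4F62P, 1.35 for POTEF, 1.34 for MED15P9 and 1.33 for FAR2P2, which were higher with DZNep at 4 Gy and lower at 0 Gy. It was -1.69 for STRA6, a retinol transporter gene, -1.47 for CEP85L and -1.39 for RGPD8, which were lower with DZNep at 4 Gy and higher at 0 Gy. STRA6 stood at 11.99 CPM in DZNep 4 Gy, 21.2 CPM in DMSO 4 Gy, 11.06 CPM in DZNep 0 Gy and 6.05 CPM in DMSO 0 Gy. TUBA3E, CYP4F62P, POTEF, MED15P9, FAR2P2 and RGPD8 belong to families of near-identical copies or pseudogenes, so their counts are uncertain.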

How the results depend on the processing

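The main counts were 266 genes at least 2-fold higher and 322 lower. They were 693 and 994 with a filter of 1 CPM (13715 genes), 146 and 145 with a filter of 30 CPM (4728 genes), and 2369 and 2925 with no filter (21116 genes), by construction of the filters. Between 239 and 278 were higher and 308 to 343 lower under the other scalings, prior counts, the short RNA exclusion and the GC correction, which was chosen after seeing the data. Medians of 15 of the 49 lists changed sign under at least 1 setting. For 10 of these the medians before and after each sign change lay within 0.1 of 0. The other 5 were those of PRC1 subunits (-0.092 at 30 CPM, against 0.18), cytosolic heat shock genes (0.17 at 30 CPM, against -0.03), mesenchymal markers (-0.064 at 30 CPM, against 0.24), G1 cyclins and inhibitors (0.15 with no filter, against -0.21) and histones (-0.11 at 1 CPM and -0.15 with no filter, against 0.57), where members enter or drop out with the filter. No paired analysis was possible because each group is 1 library and the labels carry no replicate numbers. Counting error is small at this depth, and the error between cultures is unknown.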
